A study of Mus musculus with 14 samples.

Results

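The mitochondrial carrier family, named Slc25, was described in skeletal muscle of mice that overexpress c-Myc in endothelial cells. Members were the protein-coding genes whose symbol is Slc25a followed by a number, and 47 of the 54532 genes counted met this rule. Of these, 40 had enough reads to be tested among 15458 genes.

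RNA-seq was performed on 14 libraries from skeletal muscle of male FVB/N mice, described by the study as soleus and gastrocnemius, and the labels do not say which muscle a library holds. In EC-Myc OE mice the endothelial Cdh5 promoter drives a tetracycline transactivator (tTA), which switches on a human c-Myc transgene (Tet-O-Myc) once doxycycline is removed from the food. CT mice were littermates that carry Tet-O-Myc without the transactivator, so both genotypes hold the transgene. Doxycycline was withdrawn at 4 to 6 weeks of age, and mice received a control diet (CTD) or a western high-fat diet (WD). The diet lasted 20 weeks by the labels, while the study's passage on this muscle transcriptome gives a shorter time. By the labels there were 3 CT-CTD, 3 CT-WD, 4 OE-CTD and 4 OE-WD libraries, and names such as CT-CTD 1 join the group and its replicate. The group sizes stated in the study differ from the labels and are those that exchanging CT-WD with OE-CTD would give, so every comparison was also computed with CT-WD and OE-CTD swapped in name, and whether a difference, also of Slc25a30 and Slc25a29, is one of genotype or of diet rests on the labels. All OE-WD libraries and 3 of the 4 OE-CTD libraries carry an identification number shared within their group and with no CT library. The labels do not say whether it marks a litter, a cage or an animal, so such a source cannot be told apart from genotype, nor from diet within EC-Myc OE, where the number differs between the diets. Among CT libraries, the identification numbers of CT-CTD 1 and CT-WD 1 are consecutive and lie apart from those of the others.

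Mitochondrial carriers are small proteins built from a repeated module of paired membrane helices, and most of them exchange one metabolite for another across the inner mitochondrial membrane. Through them ADP and phosphate reach ATP synthase, ATP leaves for the cytosol, and reducing equivalents, fatty acids, amino acids and cofactors cross a membrane that is otherwise tight. In muscle the ADP/ATP and phosphate carriers serve contraction, and the ATP-Mg/phosphate carriers, gated by calcium, adjust the pool of adenine nucleotides in the matrix.

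The summed counts per library ranged from 21833839 (CT-WD 2) to 28519159 (OE-CTD 2), and 0.506% (OE-WD 4) to 0.716% (CT-WD 3) of a library's counts fell on Slc25 genes. Levels of different genes are given as FPKM, counts per length and library total. Levels of 1 gene across libraries are given as CPM, that is counts over library size with TMM normalization. It corrects the size for differences in composition by a factor for each library. Differences between groups were tested with edgeR's quasi-likelihood test in 1 model of the 4 groups, p-values were adjusted over all 15458 genes, and a gene was called altered at an adjusted p under 0.05. The number at an unadjusted p under 0.05 is given beside it. Nothing in the labels says which libraries came from separate animals, so p-values measure the spread between these libraries.

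The tissue label was checked against markers. A list of 10 muscle fibre genes summed to between 129497 and 186659 CPM, with Acta1, the skeletal muscle actin, at 37282 to 52610.3 CPM in all 14 libraries. Several libraries stood apart from their replicates. OE-CTD 4 and OE-WD 4 had the highest muscle fibre sums, 182267 and 186659 CPM, against at most 170649 elsewhere. Over all tested genes, replicate pairs were compared by chi-square per degree of freedom, which was 36.3 to 42.4 for pairs with these libraries and 7.76 to 15.1 for other EC-Myc OE pairs. Pairs of CT libraries had 16.5 (CT-CTD 2 and 3) to 50.3 (CT-WD 1 and 3). In CT-CTD 1, Ucp1, the uncoupling protein that defines brown fat, was at 19.4 CPM, while it reached 2.84 CPM in OE-WD 1, at most 0.126 CPM in CT-CTD 2, OE-CTD 1 and OE-CTD 3, and 0 in all others. The lipid droplet gene Cidea (9.69 CPM) and the elongase Elovl3 (2.85 CPM) were also highest in this library among the 14. The 5 brown adipocyte markers, of which 4 were tested and Cox7a1 was the most abundant, summed to 183, 144 and 138 CPM in CT-CTD 1 to 3, 151, 167 and 190.2 in CT-WD, 186, 166, 159 and 160.2 in OE-CTD, with 154, 145, 142 and 124 in OE-WD. Dominated by Cox7a1, which muscle expresses too, this sum did not set CT-CTD 1 apart. The 8 adipocyte markers, led by Car3, a gene muscle also expresses, summed to 2213 CPM in CT-CTD 1 and to 1715 and 1714 in the other CT-CTD libraries, and OE-CTD 3 was higher still at 2576.

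A few members made up most carrier transcripts of this muscle. Slc25a4, the ADP/ATP carrier of heart and skeletal muscle, had a mean of 1593 ± 164 FPKM (SD, n = 14), 68.9% of the summed FPKM of the family, and ranked 25th among all protein-coding genes. The phosphate carrier Slc25a3 followed at 219 ± 21.6 FPKM and the oxoglutarate carrier Slc25a11 at 156 ± 10.6 FPKM. The aspartate/glutamate carrier Slc25a12, which works with Slc25a11 in the malate-aspartate shuttle, had 65.2 ± 2.95 FPKM. Their ranges did not overlap, so this order was the same in every library. The next members were the ubiquitous ADP/ATP carrier Slc25a5 (36.1 FPKM), the iron carrier Slc25a28 (26.3 FPKM), the glutathione carrier Slc25a39 (20.4 FPKM) and the ATP-Mg/phosphate carrier Slc25a25 (17.4 FPKM), each overlapping its neighbour in this order.

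By role, the ADP/ATP carriers summed to 1629 FPKM (70.5% of the family) and the carriers of citrate, dicarboxylates and oxoglutarate to 162 FPKM (6.99%). The 4 aspartate and glutamate carriers summed to 75.7 FPKM and the 9 carriers of nucleotides and cofactors to 69.4 FPKM. The latter were led by Slc25a51, which brings NAD into the matrix (15.4 FPKM), and Slc25a42, which carries coenzyme A (14.96 FPKM). The 7 carriers of amino acids and glutathione summed to 45.4 FPKM, both iron carriers to 31.9 FPKM and the 4 ATP-Mg/phosphate carriers to 25.01 FPKM. The acylcarnitine carrier Slc25a20, which admits long-chain fatty acids for oxidation, had 16.6 FPKM, and Slc25a46, a family member of the outer membrane, 12.4 FPKM. The 3 members that resemble uncoupling proteins, Slc25a14, Slc25a27 and Slc25a30, summed to 7.25 FPKM. The other 8 members were given no substrate here, and Slc25a34 led them at 13.9 FPKM.

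In several roles with paralogs, 1 of them dominated in this muscle. Slc25a12 stood at 65.2 FPKM and its paralog Slc25a13, the form of liver, at 0.584 FPKM. Among the ATP-Mg/phosphate carriers Slc25a25 had 17.4 FPKM, Slc25a23 5.20, Slc25a24 1.83 and Slc25a41 0.544. Slc25a31, the ADP/ATP carrier of germ cells, had 2 counts, both in CT-WD 2, and was at 0 in the other libraries. The remaining members that were not tested were Slc25a2, Slc25a18, Slc25a21, Slc25a43, Slc25a48 and Slc25a54, with at most 14 counts in a library.

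**Figure D1:**
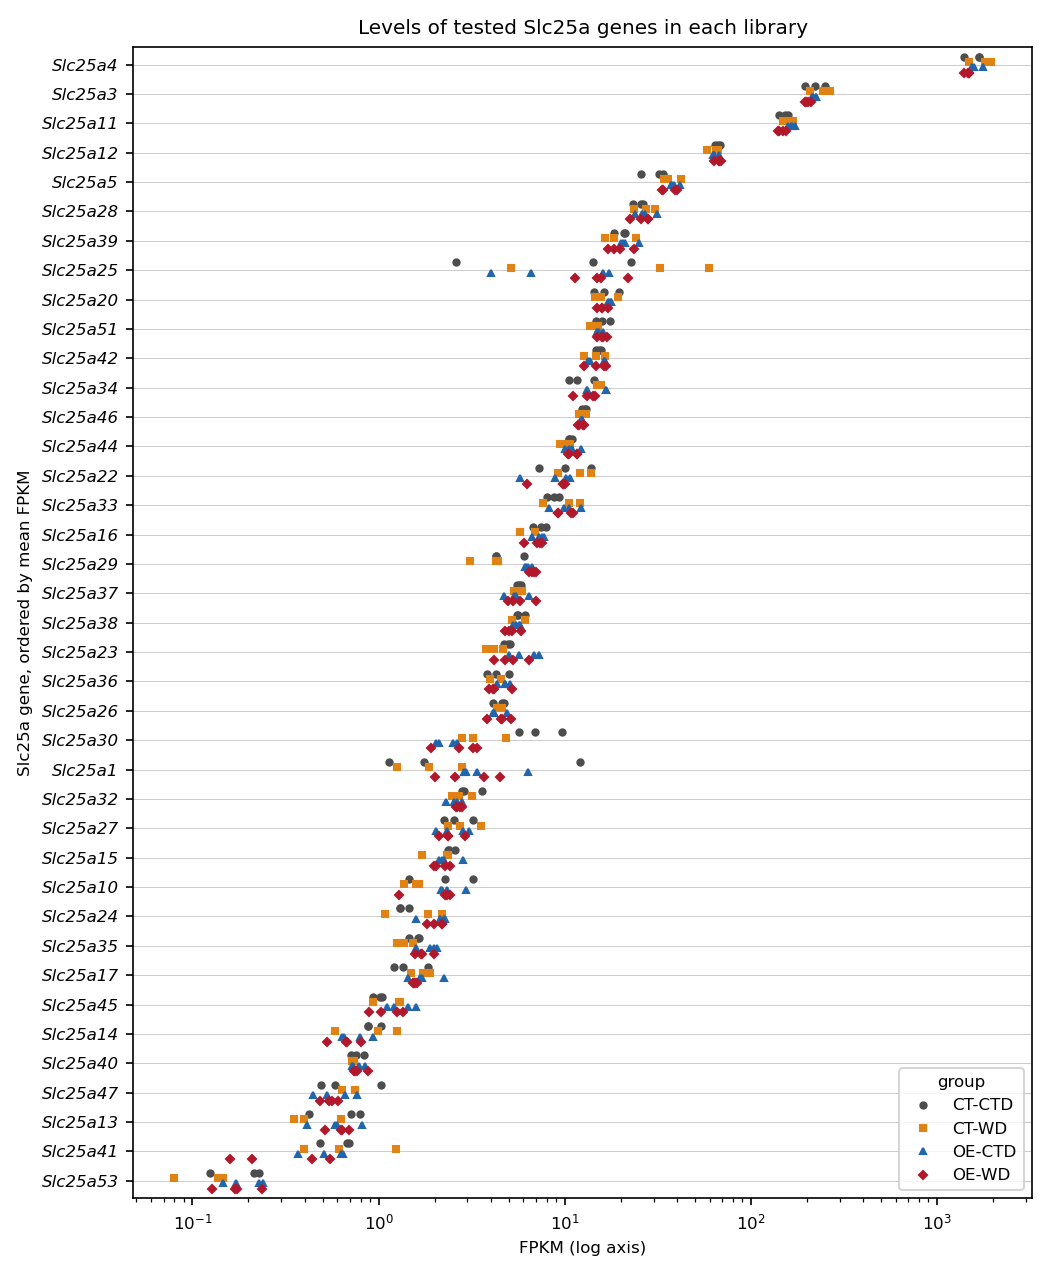
FPKM of tested Slc25 genes on a log axis, 1 point per library, with colour and shape for the group and genes ordered by their mean. Slc25a4 lies near 1593 FPKM and Slc25a53 near 0.173 FPKM, and Slc25a25 spreads from 2.61 to 59.2 FPKM.

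Slc25a25 varied far more between libraries than the other well-expressed members. Over the 27 members with at least 10 CPM on average, the coefficient of variation within groups had a median of 9.81%, beside 9.39% over all 7535 genes at that level. For Slc25a25 it was 61.6%, and 21 of those 7535 genes had a higher one. Next among these members were the glutamate carrier Slc25a22 (24.6%) and Slc25a30 (23.6%). The steadiest was Slc25a46, at 3.10%, with 1.13-fold between its highest and lowest CPM, against 22.4-fold for Slc25a25. Below 10 CPM, the citrate carrier Slc25a1 reached 60.4%, with 124% in CT-CTD, which holds CT-CTD 1, and 34.6% to 42.8% in the other groups.

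The first question was how WD altered the carriers in CT muscle. In CT-WD relative to CT-CTD, 0 of the 40 tested members were called at an adjusted p under 0.05 by edgeR, and 0% of all tested genes (0 genes). At an unadjusted p under 0.05 there were 5 members, beside 7.28% of all genes. Lower values were found for Slc25a30, an uncoupling-protein-like carrier, with a log2 fold change of -1.04 (adjusted p = 0.372 by edgeR), Slc25a16, linked to coenzyme A (-0.27), and Slc25a10, the dicarboxylate carrier (-0.59). Higher values were found for Slc25a5 (0.30) and Slc25a34 (0.32). DESeq2's Wald test called 1 member, Slc25a30 (adjusted p = 0.0194), among 29 genes, and limma called 0. Members had a median log2 fold change of -0.03, and all genes 0.01.

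In EC-Myc OE muscle the same diet comparison, OE-WD relative to OE-CTD, gave 0 members by edgeR, beside 0.00647% of all genes (1 gene). At an unadjusted p under 0.05 there was 1 member, beside 4.2% of all genes, and DESeq2 called 0 members. The member at the unadjusted level was the oxoglutarate carrier Slc25a11, with a log2 fold change of -0.18 (adjusted p = 0.9999 by edgeR). The median over members was -0.08, with 27 of 40 below 0, and the median over all genes 0.00. The 1 gene called was no carrier but Zbtb16, of the glucocorticoid-responsive list, with log2 fold changes of 1.23 here (adjusted p = 0.00559 by edgeR) and -0.53 between genotypes on WD. For the latter comparison the study gives Zbtb16 as higher in EC-Myc OE, the reverse of the sign found under the labels. With CT-WD and OE-CTD swapped in name these log2 fold changes change places, as do those of every carrier. Zbtb16 is then higher in EC-Myc OE on WD, with a log2 fold change of 1.23. Both the sign and the size that the study gives for this comparison are those found under the swapped names. Which names are right was not tested, and the genotype calls of Slc25a30 and Slc25a29 hold only under the labels.

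Whether the diet responses differed between genotypes was tested for each gene with the interaction of diet and genotype. It called 0 members and 0% of all genes by edgeR, and DESeq2 also called 0 members. At an unadjusted p under 0.05 there were 5 members, beside 5.92% of all genes. They were Slc25a30 (log2 difference 1.30), Slc25a34 (-0.50), Slc25a5 (-0.39), Slc25a11 (-0.27) and Slc25a51 (0.23). Averaged over both genotypes, diet altered 0 members at an adjusted p under 0.05 by edgeR and 0 by DESeq2, beside 0.00647% of all genes. At the unadjusted level there were 4, beside 5.96% of all genes, all lower on WD, namely Slc25a23 (-0.25), Slc25a30 (-0.38), Slc25a10 (-0.40) and Slc25a16 (-0.16).

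The genotypes were then compared on each diet. On WD, EC-Myc OE relative to CT gave 1 called member, Slc25a29, a carrier of basic amino acids, which was higher in EC-Myc OE (log2 fold change 0.78, adjusted p = 0.0284 by edgeR). That is 1 of 40 tested members, beside 0.725% of all genes (112 genes). At the unadjusted level 5 members passed, beside 16.9% of all genes. Apart from Slc25a29, these were Slc25a3 (-0.25), Slc25a41 (-1.14) and Slc25a4 (-0.26), all lower in EC-Myc OE, and Slc25a35 (0.32).

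On CTD, EC-Myc OE relative to CT again gave 1 called member of 40, Slc25a30, which was lower in EC-Myc OE (log2 fold change -1.67, adjusted p = 0.00411 by edgeR), beside 2.67% of all genes (413 genes). At the unadjusted level 7 members passed, beside 15.9% of all genes. The others were Slc25a5 (0.34), Slc25a24 (0.60), Slc25a29 (0.38), Slc25a23 (0.33) and Slc25a34 (0.30), all higher, and the folate carrier Slc25a32 (-0.27).

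Averaged over both diets, Slc25a30 fell and Slc25a29 rose in EC-Myc OE relative to CT, 2 called members of 40, beside 8.49% of all genes (1312 genes). At the unadjusted level there were 6, beside 23.9% of all genes. The other 4 were Slc25a23 (0.31), Slc25a24 (0.43), Slc25a35 (0.28) and the uncoupling-protein-like carrier Slc25a14 (-0.41). These shares are read against those of all genes, and 1 or 2 called members among 40 give no result about the family beyond the genes named. The median log2 fold change of the members was -0.01 on WD, -0.01 on CTD and 0.02 averaged, beside 0.01, 0.00 and 0.00 over all genes. The members' median turned to 0.01 on WD without CT-WD 2 and to 0.03 on CTD without CT-CTD 3. Averaged, it ran from 0.00148 without CT-CTD 2 to 0.0435 without CT-WD 2. The number of genes called among all tested moved with single libraries, so these percentages are loose yardsticks. On WD it ran from 4 (without OE-WD 2) to 1499 (without CT-WD 1), on CTD from 77 (without CT-CTD 3) to 615 (without CT-WD 1), and averaged it was lowest, 707, without CT-WD 2 and highest, 2487, when CT-WD 1 was left out. With CT-CTD 1 and CT-WD 1 both left out, an alternative chosen after the data were seen, the averaged comparison called 7 members and 2795 genes.

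**Figure D2:**
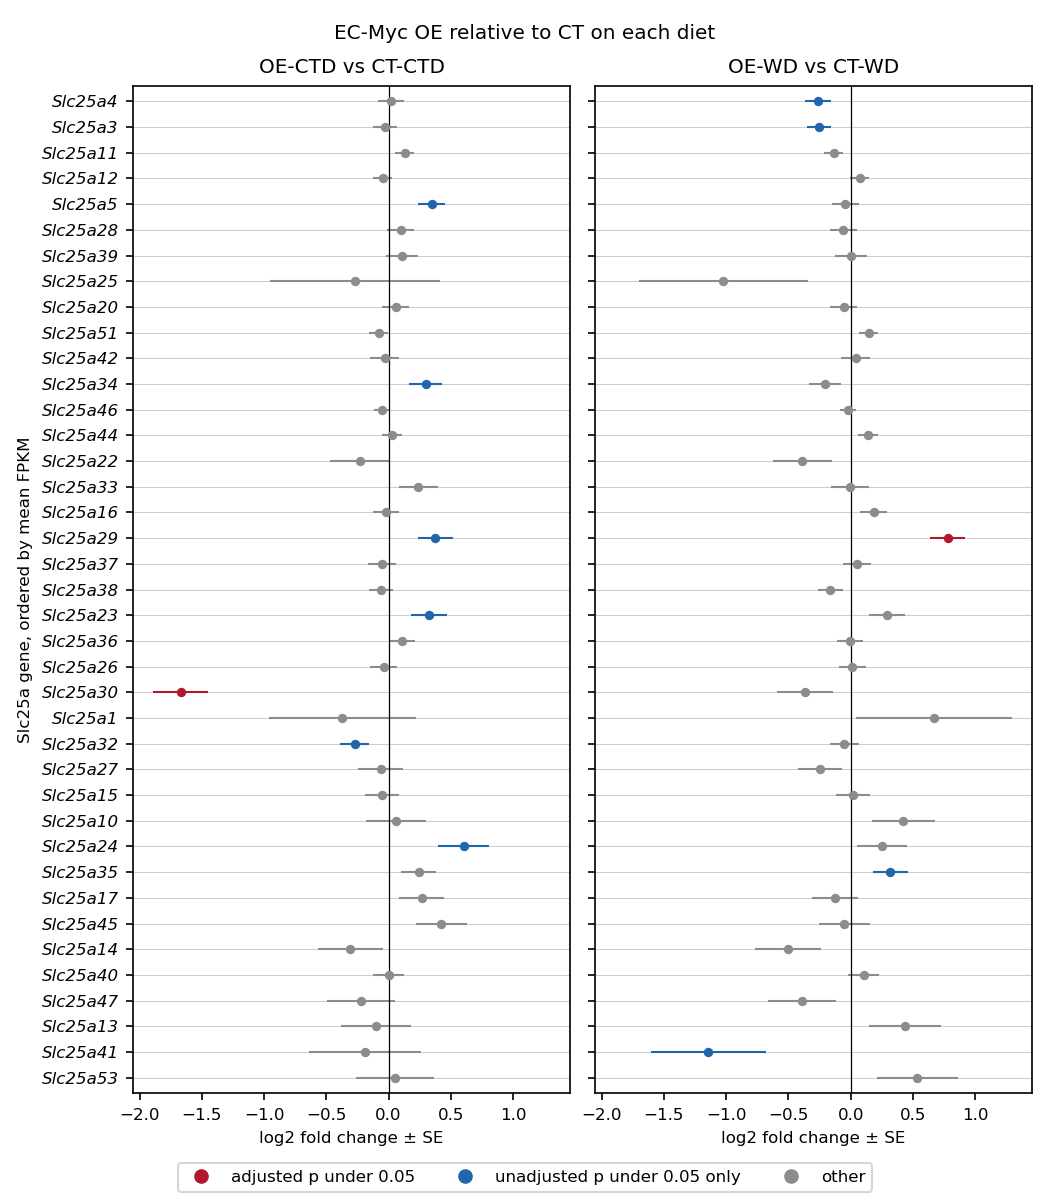
Log2 fold change of tested Slc25 genes in EC-Myc OE relative to CT on CTD (left) and WD (right), with bars for the standard error from edgeR and colours for the p-value. Slc25a30 on CTD (-1.67) and Slc25a29 on WD (0.78) are the called genes, while most others lie near 0.

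Among the ADP/ATP carriers, Slc25a4 was expressed in CT-CTD 1 to 3 at 3035, 3578 and 3652 CPM, and in CT-WD 1 to 3 at 3247, 3871 and 4191. EC-Myc OE muscle had 3834, 3436, 3316 and 3264 CPM (OE-CTD 1 to 4) and 3219, 3218, 3182 and 2964 CPM (OE-WD 1 to 4). All OE-WD libraries lay below all CT-WD libraries, while the CTD groups overlapped. EC-Myc OE relative to CT came to -0.26 in log2 on WD (standard error 0.106, adjusted p = 0.229 by edgeR), 0.02 on CTD and -0.12 averaged. For diet it was 0.14 in CT, -0.14 in EC-Myc OE and 0.00 averaged, with a log2 difference of -0.28 in the interaction. Without CT-CTD 1 the value in CT was 0.05, and without OE-CTD 1 that in EC-Myc OE was -0.09. Without CT-WD 1 the value on WD was -0.36 and passed the threshold (adjusted p = 0.0426 by edgeR), and on CTD the direction turned without CT-CTD 1 or OE-CTD 1.

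Slc25a5 was expressed at 48.4, 38.5 and 51.0 CPM in CT-CTD and 52.1, 53.9 and 63.6 CPM in CT-WD. It was at 56.9, 56.4, 62.7 and 57.5 CPM in OE-CTD and 60.2, 50.2, 59.1 and 50.2 CPM in OE-WD. Each CT-CTD library lay below every library of CT-WD and OE-CTD. Between genotypes its log2 fold change on CTD was 0.34 (standard error 0.109, adjusted p = 0.114 by edgeR), -0.04 on WD and 0.15 averaged. For diet it was 0.30 in CT, -0.09 in EC-Myc OE and 0.11 averaged, and no edgeR test of it passed the adjusted threshold. The genotype value on WD turned sign without CT-WD 3, and averaged over diets it was 0.09 without CT-CTD 2. Without CT-CTD 2 the diet value was 0.19 in CT and 0.05 averaged. In EC-Myc OE the diet value ran from -0.14 without OE-WD 1 to -0.04 without OE-WD 2. Slc25a31 was not tested in any comparison. ADP/ATP carriers are alike in sequence, and the sources used here do not state how reads matching several of them were counted.

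The phosphate carrier Slc25a3 supplies phosphate for ATP synthesis. It was at 1066, 1240.0 and 1345 CPM in CT-WD and 1067, 989, 1039 and 988 CPM in OE-WD. The groups overlapped by a small margin, since OE-WD 1 reached CT-WD 1. EC-Myc OE was lower on WD, at -0.25 in log2 (standard error 0.0976, adjusted p = 0.209 by edgeR), and -0.34 without CT-WD 1, where it passed the threshold (adjusted p = 0.0414 by edgeR). In CT-CTD and OE-CTD it ranged from 1003 to 1282 CPM.

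The ATP-Mg/phosphate carriers include Slc25a25, the most variable of the members with at least 10 CPM. CT muscle had 18.9, 101 and 165 CPM on CTD (CT-CTD 1 to 3) and 37.6, 233 and 424 CPM on WD (CT-WD 1 to 3). EC-Myc OE muscle had 29.2, 48.0, 117 and 122 CPM on CTD (OE-CTD 1 to 4) and 82.4, 107, 113 and 154 CPM on WD (OE-WD 1 to 4). All groups overlapped, the lowest library was CT-CTD 1 and the highest CT-WD 3, and OE-WD had the narrowest range. In both genotypes the libraries ranked alike by number on each diet. The WD library was above the CTD library of its number for 3 of 3 numbers in CT and for 3 of 4 in EC-Myc OE, where the numbers were not taken to pair libraries.

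For diet in CT, the log2 fold change of Slc25a25 was 1.29 (standard error 0.741, adjusted p = 0.796 by edgeR). The number was taken to pair the CT libraries from the data alone, and with it as a replicate block in the model of all libraries the value was 1.20 (adjusted p = 0.105 by edgeR). With the block and only the CT groups in the model, an alternative chosen after the data were seen, it was 1.19 (adjusted p = 0.0301 by edgeR), higher in 3 of 3 pairs and the 1 gene called. The pairs were drawn from these same libraries, so neither their count nor this call stands as independent support. Over all settings the adjusted p ran from 0.0301 to 0.995. CT-WD 3 carried much of the unpaired value, which was 0.51 without it, 0.79 without CT-CTD 1 and 1.95 without CT-CTD 3. In EC-Myc OE the log2 fold change for diet was 0.53 (standard error 0.636) and 0.26 without OE-CTD 1. Averaged over genotypes it was 0.91, and 0.52 without CT-WD 3. The interaction gave -0.75 (adjusted p = 0.951 by edgeR), so a difference between the diet responses was not detected, and its sign turned without CT-WD 3.

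Between genotypes, Slc25a25 differed by -1.02 in log2 on WD (standard error 0.677, adjusted p = 0.476 by edgeR). It was -0.27 on CTD and -0.65 averaged over diets (adjusted p = 0.444, both by edgeR). Without CT-CTD 1 and CT-WD 1, the libraries of lowest Slc25a25 in CT, the averaged value was -1.14 (adjusted p = 0.0218 by edgeR) and that on WD -1.53 (adjusted p = 0.0394 by edgeR). Those libraries were left out together, a choice made after their values were seen. Without CT-WD 3, the highest library, the value was -0.25 on WD (adjusted p = 0.946 by edgeR) and -0.26 averaged (adjusted p = 0.826 by edgeR), so the size of the difference rested on which CT libraries were kept. Without CT-CTD 3 the value on CTD was 0.39, and without OE-CTD 1 0.01, so its direction rested on single libraries.

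Beside Slc25a25, a list of 10 genes that respond within hours to activity or to cyclic AMP (6 immediate early genes, Nr4a1 to Nr4a3 and the coactivator Ppargc1a) summed to 318, 275 and 349 CPM in CT-CTD, 622, 446 and 1051 in CT-WD, 549, 596, 717 and 468 in OE-CTD, with 636, 503, 540.0 and 444 in OE-WD. Its most abundant gene, the nuclear receptor Nr4a1, was at 131, 136 and 221 CPM in CT-CTD and 200.3, 270.2 and 335 in CT-WD. CT-WD 3 was the highest CT library for Slc25a25, for Nr4a1 and for the summed list, while CT-WD 1 was high in the list and low in Slc25a25. At an adjusted p under 0.05 edgeR called 2 of the 10 genes on CTD, beside 2.67% of all genes, both higher in EC-Myc OE, Junb (1.56) and Ier2 (1.22), and 7 passed at the unadjusted level, beside 15.9%. For diet in CT edgeR called 0, beside 0% of all genes, and 9 passed at the unadjusted level, beside 7.28%. The part of these genes in the level of Slc25a25 was not tested.

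The Slc25a25 gene lies at chr2:32414487-32451445 on the minus strand of GRCm38, and RefSeq (build GRCm38.p6) lists 3 transcript starts for it. Counts per gene do not separate them. The 250 bases before the start farthest downstream, chr2:32424067-32424316 on the minus strand, lie inside the gene and overlap no exon of GENCODE M21. This gene had the largest spread of those members, and this start was chosen among the 3 because its window holds a motif. Capitals mark the cyclic AMP response element TGACGTCA, which reads the same on both strands.
Slc25a25: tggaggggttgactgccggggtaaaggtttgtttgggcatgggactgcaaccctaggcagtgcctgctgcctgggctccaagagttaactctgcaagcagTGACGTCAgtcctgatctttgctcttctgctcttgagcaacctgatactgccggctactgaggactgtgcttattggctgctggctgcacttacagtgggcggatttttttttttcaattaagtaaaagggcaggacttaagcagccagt
These letters were found in 1.55% of all 32851 RefSeq promoters of this length, searched on both strands. Of the 47 members, 36 matched this table with 46 promoters, and 2 of these held the letters, in Slc25a25 and in the pyrimidine nucleotide carrier Slc25a36. A match is a description of the sequence and not evidence of binding. The exons of Slc25a25 share 379 bases with Naif1 on the opposite strand (3.64 CPM on average). The strand setting of the counts is not given in the sources used here, so reads in that stretch cannot be assigned to either gene with certainty.

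The calcium-gated relatives of Slc25a25 did not share its spread. Slc25a23 was at 24.9, 23.8 and 22.9 CPM in CT-CTD and 22.8, 20.0 and 18.2 in CT-WD, and at 24.4, 27.5, 33.1 and 34.9 CPM in OE-CTD, with 20.3, 25.5, 23.2 and 30.6 in OE-WD. OE-CTD 1 lay within the range of CT-CTD and the other OE-CTD libraries above it, while on WD the groups overlapped. The log2 fold change between genotypes was 0.31 averaged (standard error 0.101, adjusted p = 0.0711 by edgeR), 0.33 on CTD and 0.29 on WD. DESeq2's Wald test called the averaged value (adjusted p = 0.0470). So did edgeR with no filter on low counts (adjusted p = 0.0353) and without CT-WD 1 (0.0346), OE-CTD 1 (0.0431) or OE-WD 1 (0.0382), while without OE-WD 4 the value was 0.25 (adjusted p = 0.166 by edgeR). On WD the genotype value was 0.18 without OE-WD 4. For diet it was -0.23 in CT, -0.26 in EC-Myc OE and -0.25 averaged, with -0.03 for the interaction.

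Slc25a24 was at 4.59, 4.06 and 4.13 CPM in CT-CTD and 5.82, 3.38 and 6.89 in CT-WD, and at 6.71, 7.06, 7.13 and 4.90 CPM in OE-CTD, with 6.89, 6.91, 5.70 and 6.15 in OE-WD. All CT-CTD libraries lay below all OE-CTD libraries, and on WD the groups overlapped. The log2 fold change between genotypes was 0.60 on CTD (standard error 0.204, adjusted p = 0.143 by edgeR), 0.25 on WD and 0.43 averaged. DESeq2 called the averaged value (adjusted p = 0.0462), and edgeR called it without CT-WD 3 (0.54, adjusted p = 0.0400) or without OE-CTD 4 (0.48, adjusted p = 0.0406). On WD the value was 0.02 without CT-WD 2 and 0.47 without CT-WD 3, and averaged it fell to 0.31 without CT-WD 2. For diet it was 0.34 in CT, -0.01 in EC-Myc OE and 0.16 averaged, with -0.35 for the interaction. Without CT-WD 3 these fell to 0.12 in CT, 0.06 averaged and -0.14 for the interaction.

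Slc25a41, which lacks the calcium-binding part of these carriers, had 5 to 34 counts per library. It was expressed at 0.830, 0.837 and 0.596 CPM in CT-CTD, 0.759, 0.483 and 1.51 in CT-WD, 0.767, 0.792, 0.454 and 0.612 in OE-CTD, with 0.195, 0.666, 0.255 and 0.522 in OE-WD. CT-WD 3 was the highest library, and the groups overlapped. Its log2 fold change was -1.14 between genotypes on WD (standard error 0.459, adjusted p = 0.228 by edgeR), -0.19 on CTD and -0.67 averaged. For diet it was 0.28 in CT, -0.67 in EC-Myc OE and -0.19 averaged, with -0.95 for the interaction, and its sign in CT turned without CT-WD 3. Without that library the genotype values fell to -0.60 on WD and -0.39 averaged.

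The uncoupling-protein-like carrier Slc25a30, also known as kidney mitochondrial carrier, had the largest fall between genotypes on CTD and averaged over diets. CT-CTD 1 to 3 contained 23.9, 28.8 and 40.5 CPM of it, and CT-WD 1 to 3 contained 13.7, 20.1 and 11.7. For EC-Myc OE the values were 8.89, 10.6, 11.1 and 8.37 CPM (OE-CTD 1 to 4) and 14.1, 13.5, 11.4 and 7.83 CPM (OE-WD 1 to 4). All CT-CTD libraries lay above every library of the other groups, and CT-WD overlapped OE-WD. On CTD the level in EC-Myc OE was lower in 4 of 4 libraries, with -1.67 in log2 (standard error 0.221, adjusted p = 0.00411 by edgeR). It stayed called without any single library, from -1.83 without CT-CTD 1 to -1.43 without CT-CTD 3. Since 3 of the 4 OE-CTD libraries share an identification number, leaving out 1 library at a time cannot remove a source common to them. On WD the log2 fold change was -0.37 (adjusted p = 0.432 by edgeR), and averaged over diets -1.02 (standard error 0.157, adjusted p = 0.00176 by edgeR).

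WD in CT came with less Slc25a30 (-1.04, standard error 0.236, unadjusted p = 0.000506 and adjusted p = 0.372 by edgeR), a difference that did not pass. It was called by DESeq2 (adjusted p = 0.0194) and by edgeR without a filter on low counts (adjusted p = 0.00164), and over all settings its adjusted p ran up to 0.981. In EC-Myc OE the value for diet was 0.27 (adjusted p = 0.9999 by edgeR). The interaction, a log2 difference of 1.30 (standard error 0.316, adjusted p = 0.778 by edgeR), did not pass either, and it was called only in the setting with no filter on low counts (adjusted p = 0.0158 by edgeR), its adjusted p running up to 0.999 over the settings. With CT-WD and OE-CTD swapped in name, the called difference of Slc25a30 became one of diet in CT, and that of Slc25a29 one of diet in EC-Myc OE. The Slc25a30 gene lies at chr14:75760117-75787037 on the minus strand. Its upstream 250 bases, chr14:75787038-75787287 on the minus strand (RefSeq, GRCm38.p6), are printed because this member was called on CTD. They hold none of the letters TGACGTCA, CACGTG (the E-box) or AGGTCA (a nuclear receptor motif) on either strand.
Slc25a30: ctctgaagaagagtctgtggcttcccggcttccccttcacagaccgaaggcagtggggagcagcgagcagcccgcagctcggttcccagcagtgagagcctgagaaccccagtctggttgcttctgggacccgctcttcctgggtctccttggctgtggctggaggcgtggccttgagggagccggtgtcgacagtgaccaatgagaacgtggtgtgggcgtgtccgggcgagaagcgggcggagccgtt
The E-box letters were found in 6.02% of all promoters of this length and in 8 of the 46 of members, from 7 genes, and AGGTCA in 14% and in 4 of 46. An absent match says only that these letters are not in this window.

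The other uncoupling-protein-like members were scarce. Slc25a14 was at 1.90, 2.22 and 1.91 CPM in CT-CTD, 2.75, 1.26 and 2.13 in CT-WD, 1.38, 1.42, 1.73 and 1.99 in OE-CTD, with 1.75, 1.47, 1.45 and 1.12 in OE-WD. Its groups overlapped, with an averaged log2 fold change between genotypes of -0.41 (adjusted p = 0.198 by edgeR) and -0.27 without CT-WD 1. Slc25a27 ranged from 7.39 to 12.7 CPM. The uncoupling proteins proper belong to the same protein family and carry symbols outside the rule. Ucp3, the form of skeletal muscle, was at 493, 498 and 548 CPM in CT-CTD, 476, 808 and 701 in CT-WD, 227, 192, 188 and 181 in OE-CTD, with 412, 230.4, 307 and 192 in OE-WD. Every EC-Myc OE library lay below every CT library, with log2 fold changes of -1.38 on CTD (adjusted p = 0.00575) and -1.21 on WD (adjusted p = 0.0276, both by edgeR). Of the 4 tested genes in this list, which holds Ucp1 to Ucp3, Mtch1 and Mtch2, Ucp3 was the 1 gene called in each genotype comparison. Beside it, 2.67% of all genes were called on CTD, 0.725% on WD and 8.49% averaged over diets, so the count gives no result about the list.

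Among the carriers of amino acids, Slc25a29, which imports arginine and lysine, rose in EC-Myc OE. Its CPM was 14.5, 10.2 and 10.2 (CT-CTD 1 to 3), 10.3, 10.3 and 7.38 (CT-WD 1 to 3), 14.9, 15.2, 16.0 and 14.3 (OE-CTD 1 to 4) and 16.0, 15.3, 16.3 and 16.4 (OE-WD 1 to 4). All OE-WD libraries lay above all CT-WD libraries, whereas on CTD the libraries CT-CTD 1 and OE-CTD 4 overlapped. In log2, EC-Myc OE exceeded CT by 0.78 on WD (standard error 0.140, adjusted p = 0.0284 by edgeR), 0.38 on CTD (adjusted p = 0.183) and 0.58 averaged (adjusted p = 0.00327). For diet it was -0.32 in CT and 0.08 in EC-Myc OE.

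CT-CTD 1, the library highest in Ucp1, was also the highest CT library for Slc25a29. Without it, the difference on CTD was 0.56 and was called (adjusted p = 0.0429 by edgeR). The call on WD was also lost with a replicate block, which ties libraries by number across genotypes too (adjusted p = 0.242 by edgeR) and with only the groups compared in the model (adjusted p = 0.117 by edgeR). Among single libraries it was lost without CT-WD 2, CT-WD 3, OE-WD 2, OE-WD 3 or OE-WD 4, with adjusted p of 0.0666, 0.124, 0.0883, 0.0753 and 0.0683 in edgeR's test. The lowest log2 fold change among these was 0.63, when CT-WD 3 was left out, and the highest 0.85, when CT-WD 2 was. DESeq2 called it at an adjusted p of 0.000105, and the highest adjusted p over all settings was 0.9999, with those names swapped. Averaged over diets, Slc25a29 stayed called when any single library was left out. That does not remove a source common to the EC-Myc OE libraries that share an identification number.

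Slc25a29 stands head to head with another member, Slc25a47, on chromosome 12. Slc25a29 lies at chr12:108825873-108835883 on the minus strand, Slc25a47 at chr12:108836046-108856815 on the plus strand, and 162 bases separate them. This interval, chr12:108835884-108836045 (RefSeq, GRCm38.p6, given on the minus strand), is printed because it lies before both genes, and it holds none of the letters TGACGTCA, CACGTG or AGGTCA on either strand.
Slc25a29 and Slc25a47: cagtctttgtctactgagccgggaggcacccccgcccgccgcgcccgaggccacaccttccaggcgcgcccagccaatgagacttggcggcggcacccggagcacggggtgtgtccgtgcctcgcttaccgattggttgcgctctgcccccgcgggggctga
The RefSeq promoter of Slc25a47, a window other than the interval printed, holds AGGTCA. Slc25a47, known from liver, was at 1.22 to 2.82 CPM and did not move with Slc25a29. Its log2 fold change between genotypes was -0.39 on WD (adjusted p = 0.503 by edgeR) and -0.31 averaged. Other members that neighbour each other within 100 kb are Slc25a41 and Slc25a23, Slc25a54 and Slc25a24, and Slc25a43 and Slc25a5, in each case on the same strand.

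The remaining carriers of amino acids and glutathione were not called in any comparison by edgeR. Slc25a39 ranged from 41.8 to 62.0 CPM, the branched-chain amino acid carrier Slc25a44 from 30.6 to 39.3, and the glycine carrier Slc25a38 from 12.0 to 15.5. The ornithine carrier Slc25a15 ranged from 8.76 to 14.8 CPM and Slc25a40 from 5.46 to 6.73. In none of them were the groups separated on either diet by a difference that passed the test.

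The citrate carrier Slc25a1, which exports citrate for fatty acid synthesis, was at 24.2, 3.43 and 2.26 CPM in CT-CTD and 5.64, 3.67 and 2.49 CPM in CT-WD. It was at 6.71, 5.74, 12.6 and 5.77 CPM in OE-CTD and 4.01, 8.91, 5.10 and 7.15 CPM in OE-WD. CT-CTD 1 was the highest of all libraries, and the other CT libraries lay mostly below EC-Myc OE with some overlap. Acly, the enzyme that splits exported citrate, was also highest in CT-CTD 1, at 45.8 CPM against 14.02 to 28.6 in the others. The averaged log2 fold change of Slc25a1 between genotypes was 0.15 (standard error 0.430, adjusted p = 0.876 by edgeR) with this library and 1.05 (adjusted p = 0.0290 by edgeR) without it. Slc25a1 was named after its values were seen, and the part of fat cells in its level was not tested. In bulk muscle, fewer cells of a type and less RNA per cell cannot be told apart.

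**Figure D3:**
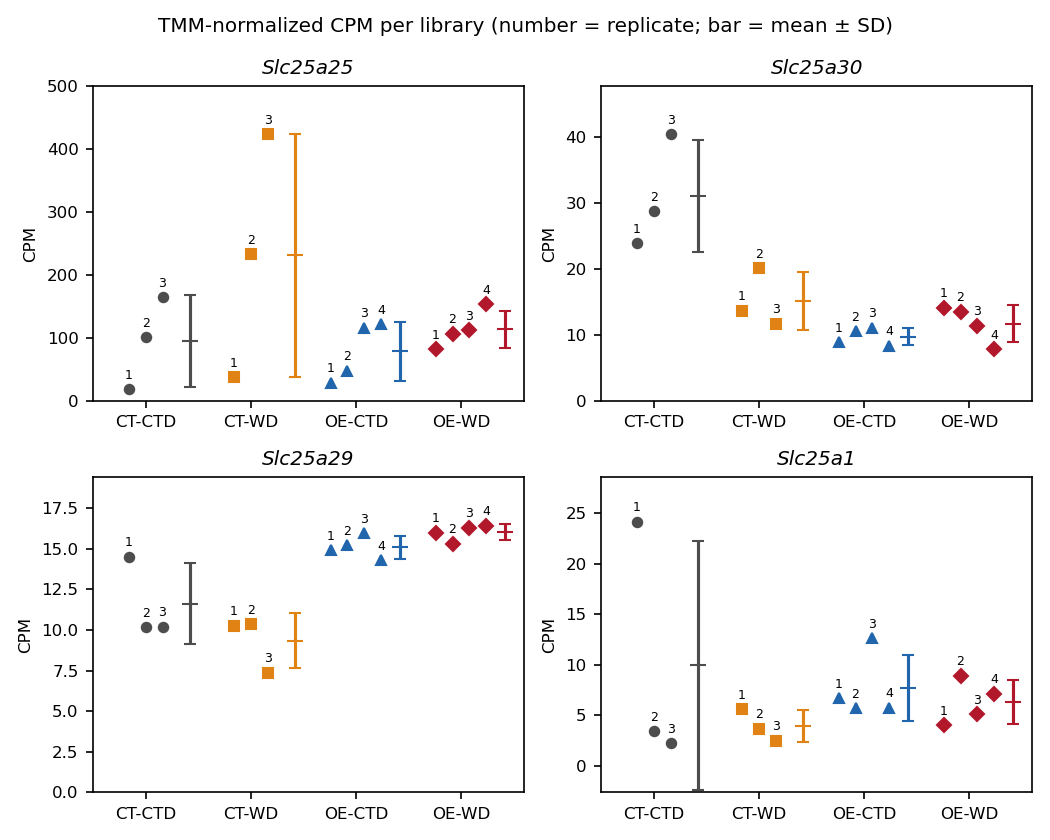
TMM-normalized CPM of Slc25a25, Slc25a30, Slc25a29 and Slc25a1 in each library, numbered by replicate, with the mean ± SD of each group (n = 3 or 4) beside its points. Slc25a30 is highest in CT-CTD, Slc25a29 is higher in all OE-WD than in all CT-WD libraries, and CT-CTD 1 is highest for Slc25a1.

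In the same role, Slc25a11 was at 338, 326, 309.6 and 313 CPM in OE-CTD and 300.1, 272, 290.0 and 271 CPM in OE-WD. All OE-WD libraries lay below all OE-CTD libraries. That diet difference was -0.18 in log2 (standard error 0.0702, adjusted p = 0.9999 by edgeR), and in CT it was 0.08. Slc25a10, which exchanges malate or succinate for phosphate, was at 10.2, 7.11 and 4.61 CPM in CT-CTD and 5.10, 4.30 and 5.20 in CT-WD. Here too CT-CTD 1 was the highest library, and the groups overlapped. Without it the diet difference in CT was -0.27 in place of -0.59, and that averaged over genotypes -0.25 in place of -0.40. Slc25a12 ranged from 388 to 466 CPM over all libraries, and its paralog Slc25a13 from 1.23 to 2.84. Slc25a22 was at 76.7, 39.5 and 55.4 CPM in CT-CTD, 67.3, 75.4 and 50.5 in CT-WD, 58.6, 55.9, 49.0 and 31.2 in OE-CTD, with 54.2, 55.3, 53.6 and 33.9 in OE-WD. OE-CTD 4 and OE-WD 4 were its lowest libraries, and these also had the lowest TMM factors, 0.888 and 0.899.

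Among the carriers of nucleotides and cofactors, Slc25a32 was at 20.1, 15.6 and 16.0 CPM in CT-CTD and 12.9, 14.7, 15.6 and 13.98 in OE-CTD, with 1 OE-CTD library inside the range of CT-CTD. The log2 fold change was -0.27 on CTD (adjusted p = 0.257 by edgeR), and -0.15 without CT-CTD 1, the highest library. Slc25a16 was at 32.9, 34.7 and 30.02 CPM in CT-CTD and 30.9, 25.1 and 25.1 in CT-WD, which overlapped through CT-WD 1. Slc25a51, for which the interaction had an unadjusted p of 0.0498 (adjusted p = 0.843 by edgeR), ranged from 68.5 to 89.1 CPM. The highest CPM over the lowest was 1.33 for Slc25a42, 1.32 for Slc25a36, 1.59 for Slc25a33, 1.37 for the S-adenosylmethionine carrier Slc25a26 and 1.88 for Slc25a17, a carrier of the peroxisome. None of these was called by edgeR in any comparison.

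The iron carriers Slc25a28 and Slc25a37 ranged from 31.1 to 42.7 and from 26.1 to 38.1 CPM. The acylcarnitine carrier Slc25a20 ranged from 63.9 to 87.4 CPM, with a log2 fold change of -0.02 for diet in CT (adjusted p = 0.989 by edgeR) and -0.14 in EC-Myc OE (adjusted p = 0.9999). A response of this fatty acid carrier to the high-fat diet was therefore not detected in these libraries. Of the members without an assigned substrate, Slc25a34 was at 28.6, 25.5 and 35.3 CPM in CT-CTD, 36.9, 36.4 and 38.2 in CT-WD, 41.1, 41.2, 32.3 and 31.7 in OE-CTD, with 34.7, 27.1, 35.5 and 31.5 in OE-WD. The CT-CTD libraries all lay below CT-WD and overlapped both EC-Myc OE groups. Its log2 fold change was 0.32 for diet in CT (adjusted p = 0.649 by edgeR). Slc25a35 was at 4.66, 4.20 and 5.16 CPM in CT-WD and 5.29, 6.70, 5.74 and 5.58 in OE-WD, where every EC-Myc OE library was the higher, with a log2 fold change of 0.32 (adjusted p = 0.264 by edgeR). The exons of Slc25a35 share 1151 bases with Rangrf on the opposite strand, which had 0.170 CPM on average. More abundant genes on the opposite strand share exon bases with Slc25a26 (Lrig1, 144 bases, 83.7 CPM), Slc25a11 (Rnf167, 189 bases, 37.8 CPM) and the untested Slc25a18 (Atp6v1e1, 32 bases, 86.5 CPM). Reads there may count for either gene. Slc25a45, Slc25a47 and Slc25a53 had means of 2.84, 1.72 and 1.26 CPM.

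Proteins that work beside the carriers were described from gene lists, in which the counts stand beside 8.49% of all genes at an adjusted and 23.9% at an unadjusted p under 0.05 between genotypes averaged over diets (edgeR). Carriers enter the inner membrane through the TIM22 complex, and of 13 genes of that import route, led in abundance by Timm29, 0 were called by edgeR between genotypes averaged over diets and 4 were lower at an unadjusted p under 0.05, with a median log2 fold change of -0.13. Of 20 tested genes for other membrane transporters, 3 were called in that comparison, the sideroflexin Sfxn3 (0.51, adjusted p = 0.000831), the calcium uniporter Mcu (0.26, adjusted p = 0.0179) and the porin Vdac2 (-0.26, adjusted p = 0.0414, all by edgeR). Of 21 enzymes that share substrates with carriers, 2 were called, Cpt2, which takes over acylcarnitine brought in by Slc25a20 (0.23), and the glutamate dehydrogenase Glud1 (0.17). Counts this small were not compared with all genes by a test. Of 95 tested genes for subunits of oxidative phosphorylation, 2 were called, and their median was -0.20 on WD and 0.09 on CTD, beside -0.01 and -0.01 for the carriers.

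Other lists were counted in the same comparison. Of 10 endothelial genes 5 were called, all higher in EC-Myc OE, and the list, led by Cdh5, summed to 433 to 457 CPM in CT-CTD, 469 to 523 in CT-WD, 483 to 546 in OE-CTD, with 541 to 563 in OE-WD. At an unadjusted p under 0.05, 6 endothelial genes were higher and 1, Flt1, was lower (-0.19). Of 12 tested glucocorticoid-responsive genes 8 were called, all lower in EC-Myc OE, and Fkbp5 had a log2 fold change of -2.10 (adjusted p = 0.000816 by edgeR). Among clock genes, 4 of 9 in the Dbp phase were called, all higher, and 2 of 6 in the Bmal1 phase, both lower. Per2, of the Dbp phase, went the other way (-0.30, adjusted p = 0.0629 by edgeR). On CTD it was called lower (-0.58, adjusted p = 0.0324 by edgeR). Calls in the remaining lists were 1 of 8 for slow fibres (Atp2a2), 2 of 8 for adipocytes (Car3 and Lep, both higher), 1 of 10 for immediate early genes (Junb) and 0 by edgeR for muscle fibre, fast fibre, brown adipocyte, macrophage, erythroid and Schwann cell genes. At an unadjusted p under 0.05 these last lists held 1 of 10, 0 of 9, 0 of 4, 5 of 8, 0 of 4 and 0 of 6. At that level 2 adipocyte genes were higher and 2 lower, the latter Cfd (-0.96) and Fabp4 (-0.33). The part of these genes in the levels of Slc25a30 and Slc25a29 was not tested.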

How the data were processed

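RNA of 14 muscle libraries was selected with poly-T beads and sequenced by an outside provider. The authors deposited counts per gene, without normalization, and FPKM, in which a count is divided by gene length and a library total. The submitters' processing notes name HISAT2 2.0.5, featureCounts 1.5.0-p3 and mm10, and the strand setting is not given in the sources used here. Transgene reads were not analysed.

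The test across genes used edgeR 4.0.16, run in R 4.3.3 (TMM, filterByExpr, quasi-likelihood test, Benjamini-Hochberg adjustment over 15458 genes) for 7 comparisons, and the biological coefficient of variation was 17.0%. The filter removed at most 0.0694% of a library's counts. Alternatives were DESeq2 1.42.0, limma 3.58.1 on log2(FPKM + 1), RLE size factors, no filter, only the groups compared, a replicate block, exchanged group names and leaving out libraries. FPKM totals were 79.9% to 98.0% of the summed counts. No pair of replicates differed by less than the sampling noise (chi-square per degree of freedom at least 7.76).

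Libraries with the same number were compared by correlating their deviations from the group means across genes. In CT-CTD and CT-WD the correlations were 0.385, 0.123 and 0.203, all over 0.1, so the numbers were taken to pair these libraries, on the data alone. The highest, 0.385, was for CT-CTD 1 and CT-WD 1, whose identification numbers are consecutive and lie apart from the others. A source common to these libraries cannot be told apart from pairing. In OE-CTD and OE-WD they were 0.0711, 0.138, 0.142 and 0.338, 3 of 4 over 0.1, and since 1 was not, these libraries were not taken as pairs. Members and lists were chosen with earlier results of these data known. Named were the 8 members of highest mean FPKM, members at an unadjusted p under 0.05, the ATP-Mg/phosphate and ADP/ATP carriers in every comparison, and from other lists the called genes, else the most abundant gene or that of smallest p. Of the 47 members, 44 had the same position in GENCODE M21 on GRCm38. Promoters came from RefSeq (GRCm38.p6). Figures were drawn with matplotlib 3.10.9.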

Additional observations from a re-analysis of the deposited data

Results flagged for a closer look

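In each group of 4 libraries the highest or lowest value of each of the 40 tested members was compared with the rest, 80 groups in all, and 6 values, from 4 libraries, stood apart from the other 3 by Dixon's gap over range. Chance alone gives about 1 in 20 groups. Slc25a4 was at 2964 CPM in OE-WD 4, below 3182 to 3219 CPM in the other OE-WD libraries, and Slc25a22 was at 33.9 CPM in the same library, below 53.6 to 55.3 CPM. Slc25a10 was at 4.09 CPM in OE-WD 1, below 7.07 to 7.64 CPM. In OE-CTD 3, Slc25a5 was at 62.7 CPM, above 56.4 to 57.5 CPM, and Slc25a1 at 12.6 CPM, above 5.74 to 6.71 CPM. Slc25a26 was at 21.7 CPM in OE-CTD 1, above 17.9 to 18.5 CPM. Groups of 3 were not checked this way. The cause of these values was not tested.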

How the results depend on the processing

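In all, 1323 of 1410 fold changes of single members under other settings kept their direction and call, and 53 turned direction. Medians over members are not among these. Every fold change below is log2, and tests are by edgeR unless another tool is named. The cause of these moves was not tested.

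With the library sets named CT-WD and OE-CTD swapped, each diet comparison takes the libraries of a genotype comparison and the reverse, so values change by construction and some directions turn. Counts of called genes among all tested change places in the same way. Those for diet in CT, in EC-Myc OE and averaged become 413, 112 and 1312. Those for genotype on CTD, on WD and averaged become 0, 1 and 1. CT-WD relative to CT-CTD then called 1 member, and gave Slc25a10 0.0586, Slc25a25 -0.27, Slc25a23 0.33 and Slc25a41 -0.19. OE-WD relative to OE-CTD called 1, with Slc25a25 at -1.02, Slc25a23 at 0.29, Slc25a24 at 0.25 and a median over members of -0.00699. OE-WD relative to CT-WD called 0, with Slc25a35 at -0.11, Slc25a25 at 0.53, Slc25a23 at -0.26, Slc25a24 at -0.0121 and a median of -0.0814. OE-CTD relative to CT-CTD called 0, with Slc25a29 at -0.32, Slc25a23 at -0.23, Slc25a25 at 1.29 and Slc25a41 at 0.28. The genotype comparison averaged over diets called 0, with Slc25a29 at -0.12, Slc25a23 at -0.25, Slc25a35 at -0.15, Slc25a25 at 0.91, Slc25a4 at 0.000630 and a median of -0.0439. The diet comparison averaged over genotypes called 2, with Slc25a23 at 0.31, Slc25a10 at 0.24, Slc25a16 at 0.0812, Slc25a25 at -0.65, Slc25a4 at -0.12 and a median of 0.0239.

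DESeq2's Wald test called 1 member for diet in CT, beside 29 genes among all tested, and 4 for genotype averaged over diets, beside 1774 genes. With no filter on low counts edgeR called 1 member for diet in CT, beside 93 genes among all tested, and 1 for the interaction, beside 29 genes, Slc25a30 in both, and it also called Slc25a23 for genotype averaged over diets (adjusted p = 0.0353), beside 1602 genes. Limma turned Slc25a24 for diet in EC-Myc OE to 0.00196. With only the groups compared in the model, the call of Slc25a29 in OE-WD relative to CT-WD was lost (adjusted p = 0.117 by edgeR).

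With a replicate block over all libraries, the call of Slc25a29 in OE-WD relative to CT-WD was lost (adjusted p = 0.242 by edgeR) and Slc25a5 turned to 0.000239. A block over all libraries ties the same number within genotypes and also across them. Across genotypes the correlations were -0.230, -0.158 and -0.0647 for CT-WD with OE-WD and 0.0465, -0.113 and -0.122 for CT-CTD with OE-CTD, none over 0.1. Which of these ties the lost Slc25a29 call rests on was not tested. In EC-Myc OE not all pairs passed the pairing threshold, and the block then also takes up degrees of freedom. With the block and only the CT groups, an alternative chosen after the data were seen, diet in CT called 1 member, Slc25a25.

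With CT-CTD 1 and CT-WD 1 both left out, chosen after the data were seen, OE-WD relative to CT-WD called 4 members, beside 1680 of 15458 genes, OE-CTD relative to CT-CTD 2, beside 766 genes, and genotype averaged over diets 7, beside 2795 genes. On CTD Slc25a4 turned to -0.0621, and in the interaction Slc25a23 turned to 0.0278 and the median over members was -0.0211.

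Leaving out single libraries moved these results. For diet in CT, Slc25a41 was lowest at -0.26 when CT-WD 3 was left out and highest at 0.58 when CT-WD 2 was. For diet in EC-Myc OE, Slc25a24 ran from -0.12 without OE-CTD 4 to 0.0421 without OE-CTD 3. In OE-WD relative to CT-WD, 0 members were called without CT-WD 2, beside 13 genes among all tested, and 3 without CT-WD 1, beside 1499 genes, and Slc25a5 was lowest (-0.0986) when CT-WD 1 and highest (0.0510) when CT-WD 3 was left out. In OE-CTD relative to CT-CTD, members called ran from 1 without CT-CTD 2, beside 107 genes among all tested, to 2 without CT-CTD 1, beside 347 genes. There Slc25a25 ran from -0.76 without CT-CTD 1 to 0.39 without CT-CTD 3, and Slc25a4 from -0.0677 to 0.0665 without the same libraries. In the interaction, the median over members ran from -0.0758 without OE-CTD 2 to -0.00881 without CT-CTD 2, Slc25a25 from -1.41 without CT-CTD 3 to 0.0228 without CT-WD 3, and Slc25a23 from -0.15 without OE-WD 4 to 0.0584 without CT-WD 1. For diet averaged over genotypes, Slc25a4 moved between -0.0471 without CT-CTD 1 and 0.0487 without CT-WD 1.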
